A study of Danio rerio with 15 samples.

Results

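tbxta (ENSDARG00000101576) and tbx16 (ENSDARG00000007329) are a pair of zebrafish T-box genes of the gastrula margin, and their RNA levels were followed across wild-type and mutant embryos. They were taken by gene ID and are 2 of the 32520 genes in the deposited count table, and both passed the filter on low counts that left 21614 genes for testing. Each sample was total RNA from 10 whole zebrafish embryos at 50% epiboly, the early gastrula, sequenced as bulk RNA-seq. The 15 samples fell into 5 groups of 3. Tu and TL are the unmutated strains. The nkd1-/- line was made with Cas9 in the Tu strain and the axin2-/- line with Cas9 in the TL strain, and the double mutant axin2-/-;nkd1-/- came from crossing these lines, so its background mixes both strains. Axin2, a scaffold of the complex that destroys β-catenin, and Nkd1, which binds Dishevelled, are both negative feedback regulators of Wnt signalling. Within a group the replicates had the same parents but separate collection days. Accordingly, the p-values below therefore measure the spread between collections of 1 family per group, and a difference between groups cannot be told apart from a difference between those families. No unmutated control of mixed TL and Tu background was among the samples analysed here.

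T-box factors bind DNA through a shared domain and switch on mesoderm genes. tbxta, the zebrafish Brachyury (no tail) gene, is expressed around the margin and in the future notochord and is needed for the notochord and the tail. tbx16 (spadetail) is expressed in the margin and in paraxial mesoderm precursors and is needed for trunk mesoderm cells to move out of the margin. Both genes respond to Nodal, FGF and Wnt signals, and their proteins act together on genes such as msgn1.

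Total counts ran from 44098543 to 68135442 per sample, and levels are CPM, counts scaled to a common library size with TMM factors. Neither targeted transcript was lower in its own mutant. axin2 averaged 94.4 CPM in axin2-/- and 67.7 in TL (log2 0.48, edgeR adjusted p = 0.00809), and nkd1 averaged 21.7 CPM in nkd1-/- and 12.4 in Tu (log2 0.81, adjusted p = 0.00517). A small Cas9 lesion need not lower RNA, so these levels do not check the genotype labels. Marker lists for ectoderm, endoderm, organizer, ventrolateral margin, enveloping layer, yolk syncytial layer and germ cells were read over markers that passed the filter. Of these, 0 were at 0 in all samples of a group. The filter removes genes with few counts, so this does not show how much of each list was detected. In bulk RNA from whole embryos, more cells expressing a gene and more RNA per cell cannot be told apart.

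tbxta RNA was highest in nkd1-/- and in the double mutant and lowest in the unmutated strains. Its level in Tu replicates 1 to 3 was 457, 522 and 620.3 CPM, and in nkd1-/- it was 691, 1007 and 801 CPM. Every nkd1-/- sample lay above every Tu sample, and nkd1-/- replicate 2 was the highest of all 15. TL had 475, 646 and 528 CPM and axin2-/- had 698, 694 and 547 CPM, and these groups overlapped because axin2-/- replicate 3 fell inside the TL range. The double mutant had 776, 732 and 791 CPM, the tightest group of the 5 and above all 6 samples of the unmutated strains. Group means with SD (n = 3 each) were 533 ± 82.0 CPM in Tu, 549.7 ± 87.5 in TL, 646 ± 86.0 in axin2-/-, 833 ± 161 in nkd1-/- and 766 ± 30.4 in the double mutant.

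**Figure D1:**
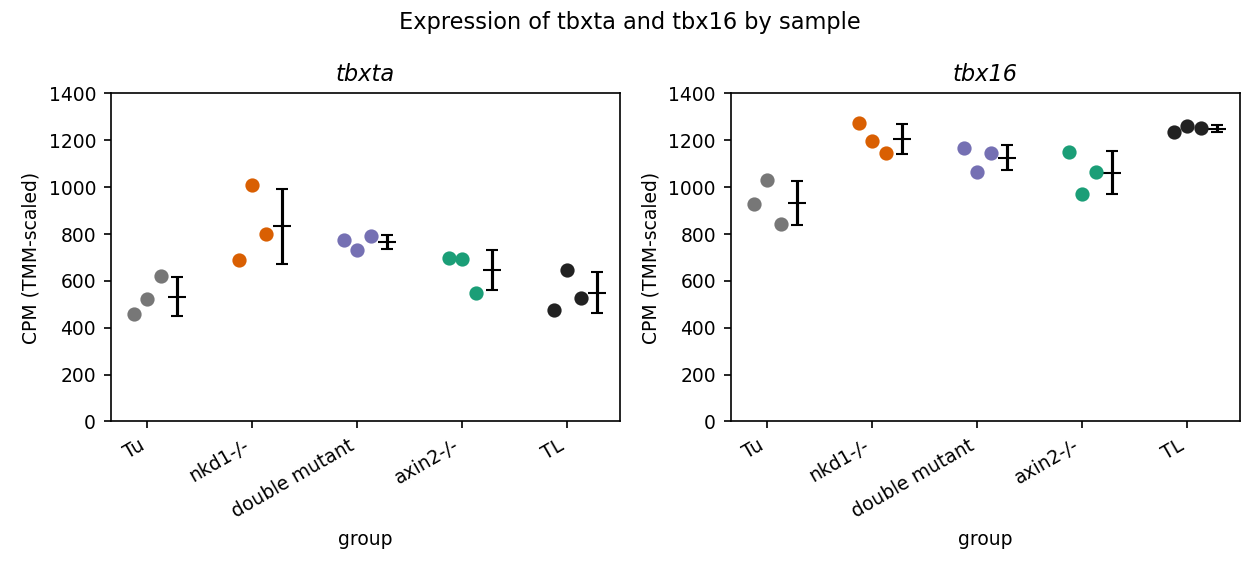
CPM of tbxta (left) and tbx16 (right) in each sample (dots) of the 5 groups, with the group mean and SD (black, n = 3). tbxta is lowest in Tu and TL and reaches 1007 CPM in 1 nkd1-/- sample, while tbx16 is lowest in Tu and near 1249.6 CPM in TL.

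In nkd1-/- against Tu, tbxta rose 1.56-fold (95% interval 1.26 to 1.93; log2 0.64, SE 0.146, edgeR adjusted p = 0.00316). In that comparison both members passed the test, where 29.3% of all tested genes passed, and both had groups that did not overlap, where 40.9% of genes did. In axin2-/- against TL, tbxta differed by 0.23 on the log2 scale (SE 0.145, interval -0.07 to 0.54, edgeR adjusted p = 0.28) and did not pass. 0 of the 2 members passed there, where 21.2% of all genes passed. The double mutant was above the mean of TL and Tu by 0.50 on the log2 scale (SE 0.123, edgeR adjusted p = 0.00426), which is 1.42-fold, and 37.4% of all genes passed in that comparison. Set against each strain alone, it was 0.48 higher than TL (edgeR adjusted p = 0.0166) and 0.52 higher than Tu (adjusted p = 0.00962), comparisons in which 34.8% and 36.4% of genes passed. The double mutant and strain samples did not overlap, as for 51.9% of genes against TL and 49.8% against Tu. The call against TL was lost without TL replicate 1 (0.38, adjusted p = 0.078), TL replicate 3 (0.44, adjusted p = 0.0647) or double mutant replicate 3 (0.45, adjusted p = 0.0533). That against Tu was lost without Tu replicate 1 (0.43, adjusted p = 0.0523). Between the strains themselves, tbxta differed by 0.04 on the log2 scale with an interval of -0.26 to 0.35 (edgeR adjusted p = 0.846).

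tbx16 RNA followed another order, and its widest gap was between the unmutated strains. Tu replicates 1 to 3 had 928, 1029 and 841 CPM of tbx16, and TL had 1234, 1262 and 1253 CPM. All TL samples were above all Tu samples, and the 3 TL values lay within a narrow range. In nkd1-/- the values were 1275, 1199 and 1147 CPM, all above Tu. In axin2-/- they were 1150.4, 969.7 and 1067 CPM, all below TL. The double mutant, at 1167, 1067 and 1146 CPM, lay between the strains and overlapped neither of them. Of all tested genes, 51.9% did not overlap between the double mutant and TL, and 49.8% between it and Tu. Means with SD (n = 3 each) were 933 ± 94.2 CPM in Tu, 1249.6 ± 14.5 in TL, 1062 ± 90.4 in axin2-/-, 1207 ± 64.1 in nkd1-/- and 1126 ± 52.6 in the double mutant.

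tbx16 was 1.34-fold higher in TL than in Tu (interval 1.18 to 1.52; log2 0.42, SE 0.087, edgeR adjusted p = 0.00139). 1 of the 2 members passed in this comparison of strains, where 31.1% of all genes passed, and 47.2% of genes had strain groups that did not overlap. Between nkd1-/- and Tu, tbx16 rose 1.29-fold (interval 1.14 to 1.47; log2 0.37, SE 0.0869, edgeR adjusted p = 0.00399). In axin2-/- against TL the difference was -0.23 (SE 0.0868, interval -0.42 to -0.05) with an edgeR adjusted p of 0.0648, which misses the threshold of 0.05, although the groups did not overlap, as for 38.1% of genes. Leaving out axin2-/- replicate 1 moved this to -0.30 with an adjusted p of 0.0364, past the threshold. Against the mean of the strains, the double mutant differed in tbx16 by 0.06 on the log2 scale (edgeR adjusted p = 0.552). That average covers a difference of -0.15 against TL (adjusted p = 0.196) and one of 0.27 against Tu (adjusted p = 0.021), the latter lost on leaving out Tu replicate 1, Tu replicate 3, double mutant replicate 1 or double mutant replicate 3 (0.20 to 0.28, adjusted p from 0.0567 to 0.0981).

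**Figure D2:**
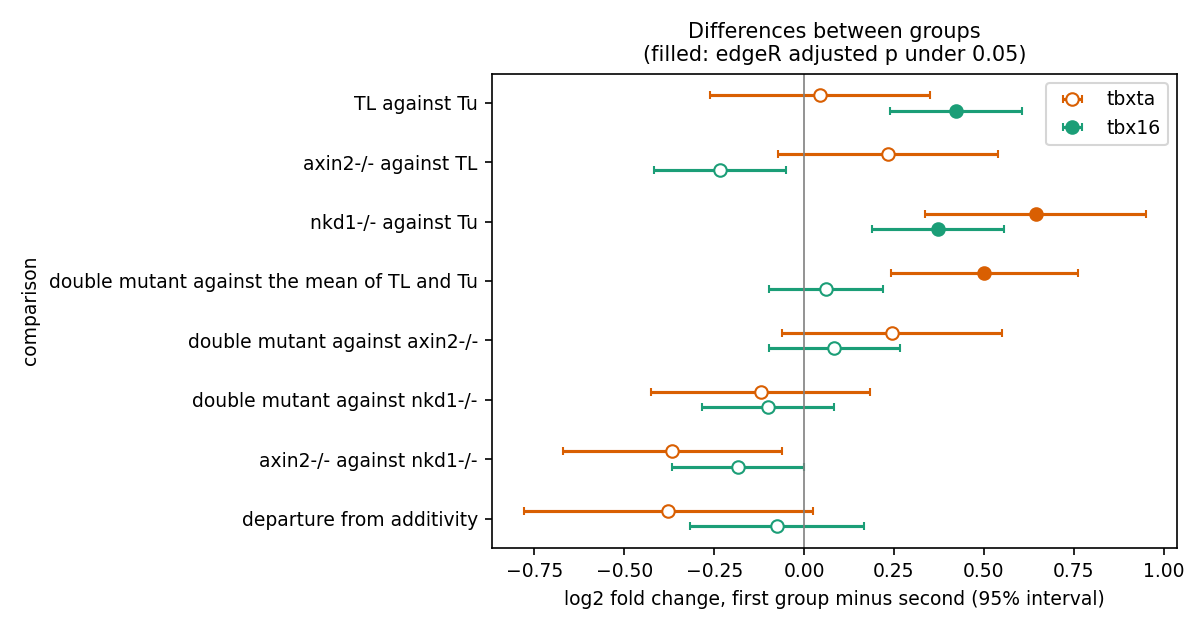
Log2 fold changes of tbxta (orange) and tbx16 (green) in 8 comparisons, with 95% intervals. Filled points passed edgeR's adjusted p of 0.05. Both genes passed in nkd1-/- against Tu, tbxta alone in the double mutant against the strain mean, and tbx16 alone in TL against Tu.

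The mutant effects on tbx16 pointed in opposite directions, each against its own strain, though only that of nkd1-/- passed on its own. The nkd1-/- effect minus the axin2-/- effect on tbx16 was 0.61 on the log2 scale (SE 0.123, interval 0.35 to 0.86, edgeR adjusted p = 0.00167), in a test that 25.8% of all genes passed. That comparison was chosen after the data had been seen. The same difference for tbxta was 0.41 (SE 0.205, interval -0.02 to 0.84, adjusted p = 0.154) and did not pass. The strain difference of 0.42 enters this gap by construction, and axin2-/- and nkd1-/- themselves differed in tbx16 by -0.18 (edgeR adjusted p = 0.106). For tbxta, axin2-/- was 0.37 below nkd1-/- on the log2 scale (interval -0.67 to -0.06, adjusted p = 0.0564), in a comparison that 37.3% of genes passed. Leaving out nkd1-/- replicate 1 moved that difference to -0.49 with an adjusted p of 0.017.

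In the double mutant the means of both genes were nearer to nkd1-/- than to Tu, and both lay between nkd1-/- and axin2-/-. For tbx16 the mean was nearer to axin2-/- than to nkd1-/-. The double mutant differed from nkd1-/- by -0.12 for tbxta (interval -0.43 to 0.18, edgeR adjusted p = 0.667) and by -0.10 for tbx16 (interval -0.28 to 0.08, adjusted p = 0.527), and 11.5% of all genes passed in this comparison. The tbxta interval still holds a level as low as 0.744 times that of nkd1-/-. Against axin2-/-, the double mutant differed by 0.24 for tbxta (interval -0.06 to 0.55, adjusted p = 0.192) and by 0.08 for tbx16 (interval -0.10 to 0.27, adjusted p = 0.465), where 38.6% of genes passed. The tbxta groups in that pair did not overlap, as for 51.6% of genes. The departure from additivity, the double mutant plus the mean of the strains minus both single mutants, was -0.38 for tbxta (SE 0.191, adjusted p = 0.181) and -0.08 for tbx16 (SE 0.115, adjusted p = 0.692), and 19.7% of genes passed that test.

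Ordered by mean, tbxta ran from nkd1-/- through the double mutant, axin2-/- and TL to Tu, and tbx16 ran from TL through nkd1-/-, the double mutant and axin2-/- to Tu. No neighbouring groups in either order differed past the threshold, with edgeR adjusted p from 0.192 to 0.846 for tbxta and from 0.103 to 0.689 for tbx16. The replicates of tbxta were the more scattered. Its SD within groups was 0.21 on the log2 CPM scale, larger than that of 86.5% of the 2085 genes averaging 100 CPM or more. For tbx16 it was 0.10, larger than that of 21.4% of those genes.

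The ratio of tbx16 counts to tbxta counts within a sample needs no scaling between libraries, though it mixes genes of different length and is read only between groups. TL had ratios of 2.59, 1.95 and 2.38, and axin2-/- had 1.65, 1.40 and 1.95. Their ends nearly met, but the groups did not overlap. Tu had 2.03, 1.97 and 1.36, nkd1-/- had 1.84, 1.19 and 1.43, and the double mutant had 1.5045, 1.46 and 1.45, so the double mutant varied least. On the log2 scale, axin2-/- was -0.47 from TL, with an exact two-sided permutation p of 0.1, the smallest that 3 against 3 samples allow. nkd1-/- was -0.26 from Tu (exact permutation p = 0.3) and the double mutant was 0.0051 from nkd1-/- (exact permutation p = 1). Against the 6 samples of both strains the double mutant differed by -0.45 in log2 ratio (exact permutation p = 0.0952, smallest possible 0.0238). After Benjamini-Hochberg adjustment over the 7 ratio comparisons the smallest adjusted p was 0.35, and none passed.

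**Figure D3:**
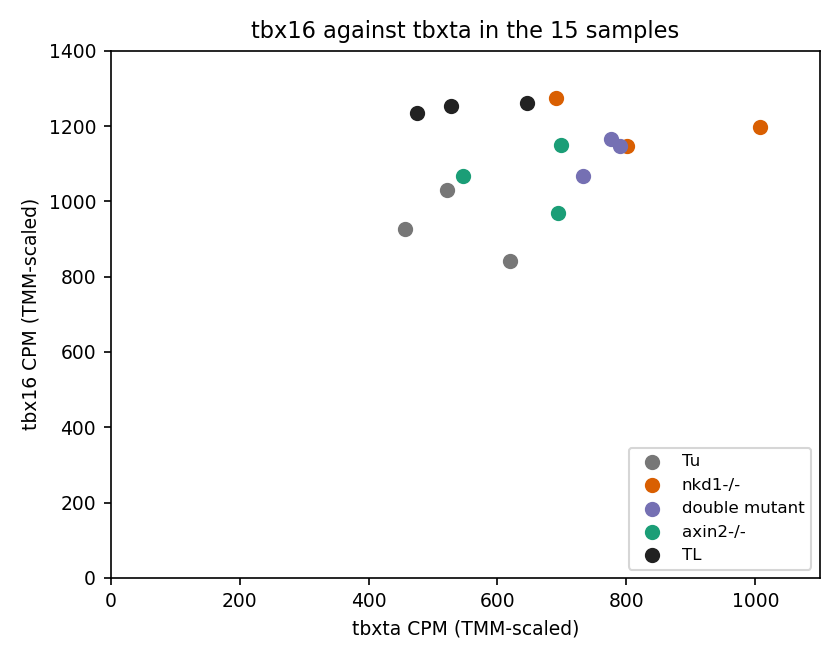
tbx16 CPM against tbxta CPM in the 15 samples, coloured by group. TL samples sit at high tbx16 and low tbxta, and Tu samples are low in both. The nkd1-/- samples lie to the right of the Tu samples, groups that did not overlap for 40.9% of all genes.

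Other tested T-box genes were less abundant, with mgaa at 124 to 202 CPM and the rest at 44.2 CPM or lower in every sample. Of 24 gene IDs that carry a T-box symbol in the name table, 20 were tested, tbxta and tbx16 among them. In nkd1-/- against Tu, 9 of them were higher and 0 lower, beside 14.4% of all genes higher and 14.8% lower, and their median log2 fold change was 1.03 against 0.0032 for all genes. Leaving out 1 sample gave 7 to 9 higher. tbxta and tbx16 are among the 9, and the median covers genes near the floor. In Tu, for example, tbx5b had 0, 1 and 3 counts and tbr1a had 8, 2 and 2. In the double mutant against the strain mean, 8 were higher and 0 lower, where 19.7% of all genes were higher and 17.7% lower, with a median of 0.71 against 0.0268. In axin2-/- against TL, 2 were higher and 0 lower (background 10.6% each way), and in TL against Tu 5 were higher and 2 lower (background 15.3% and 15.7%). The first of these counts became 1 without TL replicate 3 or axin2-/- replicate 2. The count of 5 became 3 without TL replicate 1 and 4 in the other fits that left out a sample. Of the 11 tested genes on a shorter list of T-box symbols, 5 were higher in nkd1-/- than in Tu, 3 in the double mutant than in the strain mean, 2 in TL than in Tu and 1 in axin2-/- than in TL, with 0 lower in each. The backgrounds are those just given, so 1 of 11 in axin2-/- is near the share of all genes, and it became 0 without TL replicate 3 or axin2-/- replicate 2. Without axin2-/- replicate 1 or 2, 1 gene of the shorter list was lower there, and the same held in TL against Tu without TL replicate 2 or Tu replicate 1.

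tbx16l, a close relative of tbx16 in presomitic mesoderm, had 8.85, 16.4 and 15.7 CPM in Tu, 4.04, 12.3 and 5.54 in TL, and 44.2, 31.4 and 41.1 in the double mutant. The double mutant samples were all above the strains, a log2 difference from their mean of 1.96 (SE 0.305, edgeR adjusted p = 0.000102). The tbx16l difference between nkd1-/- and Tu, 0.81 (SE 0.369, edgeR adjusted p = 0.111), did not pass, and the double mutant was 1.91 above axin2-/- (adjusted p = 0.000838). TBXT (ENSDARG00000039806), which the name table gives the human symbol of Brachyury, was counted at 1.64, 2.33 and 2.73 CPM in Tu, 2.85, 7.06 and 6.37 in nkd1-/-, and 7.19, 6.14 and 6.62 in the double mutant. It rose by 1.28 in nkd1-/- against Tu (SE 0.337, adjusted p = 0.0086) and by 1.35 in the double mutant (SE 0.276, adjusted p = 0.00109), the same directions as tbxta. TBXT was singled out after its values were seen, and reads of related copies may have been split by the authors' counting. TBX1, a T-box gene of the pharyngeal region, rose by 2.48 in nkd1-/- against Tu (edgeR adjusted p = 0.00808) and by 2.20 in the double mutant (adjusted p = 0.00254). Without nkd1-/- replicate 2 the first of these was 1.70 with an adjusted p of 0.0607. TBX1 was near the floor in the strains, at 0.27, 0.55 and 0.59 CPM in Tu (13, 29 and 28 counts). In TL it had 0.75, 1.08 and 0.82 CPM. Its mean of 1.47 CPM over all samples includes the groups in which it rose. tbx6 itself, at a mean of 1.14 CPM, passed in none of the 4 comparisons.

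Genes of the posterior mesoderm that act with or downstream of T-box factors included several with larger fold changes than tbxta and tbx16. Of 24 symbols listed, 21 matched an ID and 20 were tested. In nkd1-/- against Tu, 8 were higher and 1 lower (median log2 fold change 0.51), beside 14.4% of all genes higher and 14.8% lower. The double mutant against the strain mean had 12 higher and 5 lower (median 0.70), where 19.7% of all genes were higher and 17.7% lower. In axin2-/- against TL, 3 were higher and 1 lower (median 0.27), where 10.6% of all genes were higher and 10.6% lower. In TL against Tu, where 15.3% of all genes were higher and 15.7% lower, 1 was higher and 3 lower (median -0.0449). The axin2-/- count of 3 became 1 without TL replicate 1 or 3, and the count of 3 lower in TL became 0 or 1 without TL replicate 1, TL replicate 3 or Tu replicate 3. The median over all tested genes lay between 0.00099 and 0.0268 in these 4 comparisons. Without Tu replicate 1 the count of 8 became 5, without nkd1-/- replicate 2 it became 6, and without double mutant replicate 2 or replicate 3 the count of 5 lower became 3, as it did with TL alone as the control.

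msgn1, a transcription factor of presomitic mesoderm that T-box and Wnt signals switch on, had 12.5, 18.3 and 25.4 CPM in Tu and 38.6, 114 and 59.7 in nkd1-/-. In TL it had 15.7, 24.9 and 16.5 CPM, in axin2-/- 19.5, 37.3 and 17.7, and in the double mutant 74.3, 67.9 and 71.5. The nkd1-/- and double mutant samples stood above all others. msgn1 rose by 1.92 on the log2 scale in nkd1-/- against Tu (SE 0.35, edgeR adjusted p = 0.000599) and by 1.92 in the double mutant (SE 0.282, adjusted p = 6.2e-05), and it differed by 0.38 in axin2-/- against TL (adjusted p = 0.473). pcdh8, a protocadherin of paraxial mesoderm that depends on tbx16, rose from 57.5, 88.6 and 73.8 CPM in Tu to 177, 300.1 and 235.5 CPM in nkd1-/-, a log2 change of 1.70 (SE 0.195, adjusted p = 7.31e-06). mespab, which helps to set somite boundaries, had 22.0, 28.3 and 36.9 CPM in Tu and 56.8, 90.8 and 68.6 in nkd1-/-, a rise of 1.31 (adjusted p = 0.000249), and in the double mutant it rose by 1.03 (adjusted p = 0.000268). In each of these 3 genes nkd1-/- replicate 2 was the highest of its group, as it was for tbxta. ripply1, a repressor that ends presomitic expression, rose by 1.58 in the double mutant (adjusted p = 0.000287) and by 1.14 in nkd1-/- (adjusted p = 0.0164), the latter lost without Tu replicate 1 (0.99, adjusted p = 0.0744) or nkd1-/- replicate 2 (0.70, adjusted p = 0.123). mespaa rose by 1.62 in the double mutant (adjusted p = 9.54e-05).

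The 5 list members that fell in the double mutant, named here after their values were seen, were the segmentation clock genes her1 (-0.76) and her7 (-1.23), the Notch ligand gene dlc (-1.09), the mesendoderm gene mixl1 (-0.36) and the notochord gene noto (-0.27), with edgeR adjusted p from 0.000138 to 0.0243. With TL alone as the control of the double mutant, mixl1 and noto were not called lower, as 0 genes of the Nodal and organizer lists were. Between the strains, noto was -0.37 in TL against Tu (edgeR adjusted p = 0.0109). noto also fell in nkd1-/- against Tu, by 0.64 on the log2 scale (edgeR adjusted p = 0.000193). In axin2-/- against TL, wnt11f2, a ligand gene of cell movement in gastrulation, rose by 0.49 (edgeR adjusted p = 0.00326). The other 3 genes called there each lost their call on leaving out single samples. pcdh8 (0.64) did so without TL replicate 1 or 3 or axin2-/- replicate 1 or 2, mespaa (0.98) without TL replicate 1 or 3 or axin2-/- replicate 2, and dlc (-0.70) without TL replicate 2 or axin2-/- replicate 2.

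**Figure D4:**
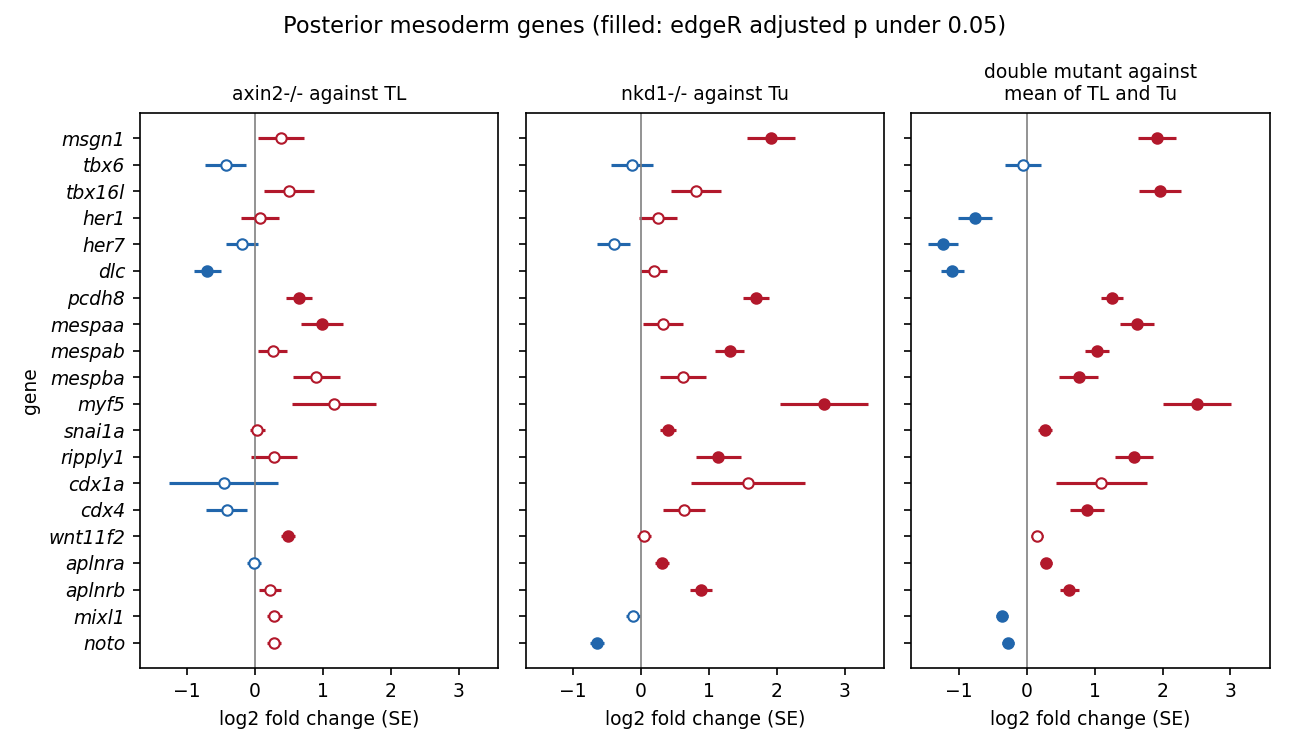
Log2 fold change with SE of the 20 tested posterior mesoderm genes in 3 comparisons (red higher, blue lower, filled where edgeR's adjusted p was under 0.05). msgn1 reached 1.92 in the nkd1-/- and double mutant panels, and her1, her7 and dlc fell in the double mutant panel.

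The Wnt list held ligands, receptors, the destruction complex and feedback and target genes, and 29 of its 50 symbols were tested. 8 were higher and 1 lower in nkd1-/- against Tu, 10 higher and 3 lower in the double mutant against the strain mean, 5 higher and 2 lower in axin2-/- against TL, and 1 higher and 3 lower in TL against Tu. The shares of all genes higher and lower were 14.4% and 14.8%, 19.7% and 17.7%, 10.6% and 10.6%, and 15.3% and 15.7% in that order. Beside these, the counts of genes higher in nkd1-/- and the double mutant were above the background. The counts lower in those comparisons, 1 and 3 of 29, are too small to be set apart from it. The list was chosen with earlier results of these data known, so its counts are a description only. The targeted genes axin2 and nkd1 are on the list and are among those counted higher in both comparisons. Their edgeR adjusted p was 0.00826 and 0.00517 in nkd1-/- against Tu, and 5.06e-05 and 0.00135 in the double mutant. axin2 is also among the 5 higher in axin2-/- against TL (adjusted p = 0.00809). Medians were 0.20, 0.23, -0.12 and 0.0214, where those of all genes were 0.0032, 0.0268, 0.01 and 0.00099. The axin2-/- count of 5 became 3 without TL replicate 1, TL replicate 3 or axin2-/- replicate 2, and its count of 2 lower became 1 without TL replicate 2 or 3 or axin2-/- replicate 1 or 2, and 4 with library totals in place of TMM. The 3 lower in TL became 0 without any 1 of TL replicates 1 to 3 or Tu replicate 3, and 1 without Tu replicate 1. That count was at most 2 in any fit that left out a sample. The 1 lower in nkd1-/- became 0 without Tu replicate 1, Tu replicate 2, nkd1-/- replicate 2 or nkd1-/- replicate 3, and 2 without nkd1-/- replicate 1. sp5l, a Wnt target that encodes a zinc finger factor, had 60.9, 81.8 and 132 CPM in Tu and 182, 302 and 294 in nkd1-/-, a rise of 1.501 (SE 0.3, edgeR adjusted p = 0.00125), and in the double mutant it rose by 1.78 (adjusted p = 3.25e-05). lef1, a nuclear partner of β-catenin, had 11.6, 12.8 and 16.4 CPM in Tu and 31.7, 65.0 and 39.4 in nkd1-/-, with a log2 change of 1.74 (adjusted p = 4.2e-05), and it rose by 1.54 in the double mutant (adjusted p = 1.22e-05). The receptor gene fzd10 rose by 1.28 and 1.60 in the same comparisons (adjusted p = 0.000122 and 1.31e-06). tcf7, a second nuclear partner of β-catenin at a mean of 2.10 CPM, showed the strain pattern of tbx16. It was 1.47 higher in TL than in Tu (edgeR adjusted p = 0.000994), rose by 1.59 in nkd1-/- against Tu (adjusted p = 0.000613) and fell by 1.14 in axin2-/- against TL (adjusted p = 0.00863).

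Nodal signals act upstream of both T-box genes. Of 24 symbols of the Nodal list 17 were tested, and 3 were higher and 4 lower in nkd1-/- against Tu, 5 higher and 3 lower in the double mutant, 4 higher and 0 lower in axin2-/- against TL, and 0 higher and 4 lower in TL against Tu. In the same order all genes were higher and lower at 14.4% and 14.8%, 19.7% and 17.7%, 10.6% and 10.6%, and 15.3% and 15.7%. The axin2-/- count of 4 became 0 without TL replicate 1, TL replicate 3 or axin2-/- replicate 1, 1 without axin2-/- replicate 2 and 2 without axin2-/- replicate 3. It was at most 3 in any fit that left out a sample. The 4 lower in nkd1-/- against Tu became 3 in each of the 6 fits that left out a sample. With TL alone as the control of the double mutant 0 Nodal genes were lower, with Tu alone 3 were higher and 5 lower, and with library totals in place of TMM 1 was higher in axin2-/-. The ligand gene gdf3 fell by 0.83 in nkd1-/- against Tu (edgeR adjusted p = 0.000256), while the endoderm genes foxa2 and sox17 rose by 1.25 (adjusted p = 4.95e-05) and 1.44 (adjusted p = 0.0017). gdf3 also differed between the unmutated strains, by -1.28 in TL against Tu (edgeR adjusted p = 2.55e-06). Median log2 fold changes of the Nodal list were -0.0263, 0.12, 0.19 and -0.15 in those 4 comparisons. Of 21 FGF symbols 16 were tested, and 5 were higher and 1 lower in nkd1-/- against Tu, 6 and 1 in the double mutant, 4 and 1 in axin2-/- against TL, and 1 and 1 in TL against Tu, where the all-gene shares are those given for the Nodal list. The counts of lower FGF genes, 1 of 16 in each of the 4 comparisons, are too small to be set apart from the background. The 1 lower in the double mutant became 2 under several settings, among them library totals in place of TMM and Tu alone as the control. The 1 lower in TL became 2 with the DESeq2 Wald test and 0 without TL replicate 1. The FGF count of 5 became 3 without Tu replicate 1 or without nkd1-/- replicate 2. flrt3, a membrane protein of FGF signalling, rose by 0.89 in nkd1-/- against Tu (edgeR adjusted p = 0.000436) and by 0.81 in the double mutant (adjusted p = 0.000154), and the ligand gene fgf4 fell by 1.44 (adjusted p = 0.00138) and 1.29 (adjusted p = 0.00112).

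Summed markers of other tissues also differed between the groups. The summed level of 7 enveloping layer markers (the outer epithelium of the embryo) was 8831, 9152 and 10660.0 CPM in Tu and 9872, 14420.0 and 11060.0 in nkd1-/-. In TL it was 7306, 9347 and 8649 CPM, in axin2-/- 8102, 9915 and 8417, and in the double mutant 10730.0, 11410.0 and 10980.0. nkd1-/- replicate 2 was the highest sample in this sum and in tbxta, and the sample highest in the sum was also highest in tbxta in 3 of 5 groups. For tbx16 this held in 1 of 5 groups. The match with tbxta was not particular to the enveloping layer. Tu replicate 3, TL replicate 2 and nkd1-/- replicate 2 were each highest of their group in tbxta. They were also highest of their group in the ectoderm sum (1670, 1423 and 1515 CPM) and the ventrolateral margin sum (270, 283 and 437 CPM). In axin2-/-, replicate 1 was highest in tbxta but replicate 2 in both of these sums. In the double mutant, replicate 3 was highest in tbxta (791 CPM), the ectoderm sum (1468) and the ventrolateral margin sum (388). Replicate 2 was highest there in the enveloping layer sum. As a description over the 15 samples, Pearson's r of the log2 enveloping layer sum was 0.833 with log2 tbxta and -0.0602 with log2 tbx16, each pair being read from 1 library. 2 of the 7 markers were higher in nkd1-/- against Tu (background 14.4%), which became 4 with library totals in place of TMM or without Tu replicate 3 or nkd1-/- replicate 1, and 1 without nkd1-/- replicate 2. In the double mutant against the strain mean 4 were higher and 1 lower (background 19.7% and 17.7%), with 2 higher without double mutant replicate 2 or 3 and 0 lower without TL replicate 2, TL replicate 3, Tu replicate 3 or any 1 double mutant sample. In the double mutant, the sums of 4 endoderm markers (433 to 477 CPM), 5 organizer markers (446 to 488), 4 ventrolateral margin markers (359 to 388), 4 yolk syncytial layer markers (99.4 to 124) and 5 germ cell markers (446 to 457) also lay above every TL and Tu sample, whose highest values were 408, 412, 283, 82.7 and 429. Among all tested genes taken singly, the double mutant did not overlap TL for 51.9% and Tu for 49.8%. The sum of 6 ectoderm markers, 1333 to 1468 CPM in the double mutant, overlapped Tu (1207 to 1670) and TL (1147 to 1423). The yolk syncytial sum was carried by apoa1b, which rose by 3.61 (edgeR adjusted p = 3.54e-05), while mxtx2 fell by 1.86 (adjusted p = 2.15e-07) and 2 of the 4 markers were lower. Of the 5 germ cell markers 1 was higher and 0 lower. These marker genes were singled out after their values were seen. Ventrolateral margin markers summed to 262 to 437 CPM in nkd1-/- and 173 to 270 in Tu, which overlapped. The germ cell sum was 478 to 552 CPM in nkd1-/- against 362 to 429 in Tu. The sum of 20 maternal and stage genes overlapped between all groups, between 5185 and 5848 CPM. Single genes in that sum still moved in opposite directions. nanog differed by -1.16 in nkd1-/- against Tu (edgeR adjusted p = 0.00053) and by -1.10 in the double mutant (adjusted p = 0.000231). sox19b differed by 1.16 (adjusted p = 3.71e-05) and 1.37 (adjusted p = 5.79e-07) in the same comparisons. The part of these shifts in the tbxta and tbx16 results was not tested.

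**Figure D5:**
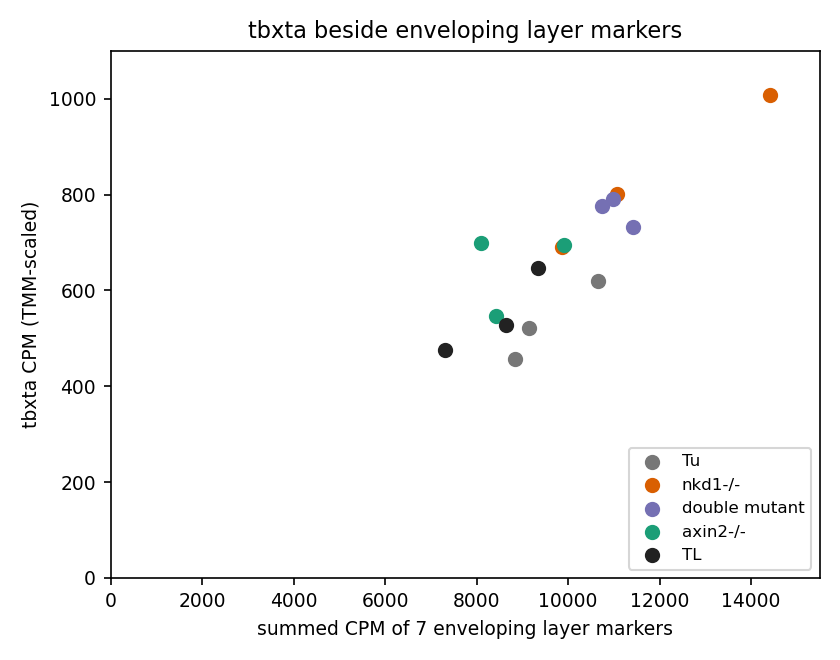
tbxta CPM against the summed CPM of 7 enveloping layer markers in the 15 samples, coloured by group. The sample farthest to the right, at 14420.0 CPM of markers, is nkd1-/- replicate 2, which also has the highest tbxta.

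The genes whose levels most resembled each member over the 15 samples were found among 9846 genes that have a symbol and average 5 CPM or more, by Pearson's r of log2 CPM, as a description. For tbxta they were nat8 (r = 0.964), mespab (0.951), TTC22 (0.946), FUBP1 (0.944) and spsb4b (0.940). TTC22 spanned the widest fold range of them, from 9.60 ± 3.74 CPM in Tu to 42.7 ± 10.9 in nkd1-/- and 36.8 ± 4.78 in the double mutant. For tbx16 the list was acvr2ab (r = 0.934), rnf167 (0.916), si:dkey-93n13.2 (0.886), zgc:92360 (0.882) and sesn2 (0.881). acvr2ab, an activin type II receptor gene, had 4.84, 6.63 and 2.75 CPM in Tu against 14.94, 14.99 and 14.79 in TL, and 11.1, 10.9 and 11.5 in nkd1-/-. All 5 of the genes most like tbx16 were highest in TL and lowest in Tu, as tbx16 itself was. Picking them by their r with tbx16 favours such a shared order. tbxta and tbx16 had r = 0.248 with each other over the 15 samples.

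Neighbouring genes were read from the gene order of the RefSeq assembly GRCz12tu, which is not the build of the counts, so no coordinates are given. nudc, next to tbxta, was -0.38 in TL against Tu (edgeR adjusted p = 0.00924) and -0.31 in the double mutant (adjusted p = 0.0119), where tbxta was higher. Between axin2-/- and TL nudc rose by 0.29 (adjusted p = 0.0492), and between nkd1-/- and Tu it differed by -0.27 (adjusted p = 0.0538). zgc:175136, the fourth gene before tbxta, was -0.93 in TL against Tu (adjusted p = 0.000815) and -0.56 in the double mutant (adjusted p = 0.0109). On either side of tbx16, cabin1 was 0.80 higher in TL than in Tu (edgeR adjusted p = 0.00372) and klhl22 differed by 0.62 (adjusted p = 0.0541), both in the direction of tbx16. The corresponding differences between nkd1-/- and Tu were 0.50 for cabin1 (adjusted p = 0.0535) and 0.29 for klhl22 (adjusted p = 0.38). In axin2-/- against TL neither moved past the threshold (0.0398 and -0.12). Other tested neighbours did not pass in TL against Tu. Near tbx16 these were ankrd39 (-0.224), cep78 (0.087), gna14a (-0.655) and vps13a (0.27), with edgeR adjusted p from 0.118 to 0.662. Near tbxta, kdf1b differed by 0.164 (adjusted p = 0.719). The tested neighbours that passed in TL against Tu were thus nudc, zgc:175136 and cabin1, where 31.1% of all genes passed. In the double mutant and in axin2-/- against TL, 37.4% and 21.2% of all genes passed. Whether neighbours differ from other genes was not tested.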

How the data were processed

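The authors deposited 1 table of raw counts per Ensembl gene for 15 samples, whole numbers with no normalization. The submitters' processing notes name GRCz11 and edgeR 3.30.3. The aligner, counting tool, annotation release and use of strand are not given in the sources used here, so overlapping genes and close copies may share reads. Symbols came from a separate name table, which paired 89.8% of the 32520 IDs. Symbols carried by several IDs were left out of the lists, except the list of every T-box symbol, which counts IDs. Genes were filtered with filterByExpr (minimum count 10, minimum total 15), scaled by TMM and fitted in 1 quasi-likelihood model over all 15 samples with group as the factor (edgeR 4.0.16, R 4.3.3). P-values were adjusted by Benjamini-Hochberg over 21614 genes at a threshold of 0.05, and an SE is the fold change over the root of F. Total counts, 44098543 to 68135442 per sample, gave at least 22283 counts for each member. Replicates differed beyond sampling noise (chi-square per degree of freedom 12.1 to 66.8), so none was counted once for a pair. Ratios were tested by exact permutation (SciPy 1.17.1). The fit was tested on simulated counts.

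The members and gene lists were chosen with earlier results of these data known, and some genes stand on more than 1 list (mixl1, tbx16l, cdx4, wnt11f2). Named genes are the members, the targeted genes, up to 4 called genes per list and comparison with the largest change at a mean of at least 1 CPM, and 5 genes per member with the most similar levels. Same-numbered samples were not paired by the labels, and their deviations correlated at a mean r of 0.0211 over 30 pairs (2 pairs over 0.1). Alternatives were DESeq2 1.42.0, other scalings, no filter, thinned counts, the compared groups alone, 1 strain as control, a replicate block and leaving out each sample.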

Additional observations from a re-analysis of the deposited data

Results flagged for a closer look

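The nkd1-/- effect on tbx16 (against Tu) and the axin2-/- effect (against TL) differed by 0.61 on the log2 scale, and this difference between groups passed its own test (SE 0.123, edgeR adjusted p = 0.00167). That test was passed by 25.8% of all genes. All 3 nkd1-/- samples lay above Tu and all 3 axin2-/- samples below TL. Groups did not overlap for 40.9% and 38.1% of all genes in these comparisons. The nkd1-/- effect passed on its own (0.37, edgeR adjusted p = 0.00399), and the axin2-/- effect did not (-0.23, adjusted p = 0.0648). The TL control of axin2-/- was 0.42 above the Tu control of nkd1-/-, and genotype and strain cannot be told apart in this design. The difference kept its call in all 12 fits that left out a sample (0.54 to 0.71). It was chosen as a comparison after the data had been seen.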

How the results depend on the processing

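For tbxta, tbx16 and their ratio, 117 values under other settings kept their direction and side of the threshold. The exceptions were tbxta in axin2-/- against nkd1-/-, which passed with library totals without TMM (-0.34, adjusted p = 0.0309) and with no filter on low counts (-0.38, adjusted p = 0.034), and tbx16 in the double mutant against the strains, which was -0.15 with TL alone (adjusted p = 0.196) and 0.27 with Tu alone (adjusted p = 0.021). In those last settings the control itself changes, and the cause of the first 2 was not tested. zp3b turned from lower in the double mutant to 0.23 with TL alone (adjusted p = 0.215). Among named list genes, 646 values kept their call, 19 lost it and 1 reversed, and of the counts of list genes 835 stayed within 1.5 times and 65 moved.

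Leaving out single samples gave tbx16 in axin2-/- against TL -0.30 to -0.18, tbxta in TL against Tu -0.0672 to 0.17 (reversed without Tu replicate 1, at -0.05, and without TL replicate 2, at the lower end), tbxta in axin2-/- against nkd1-/- -0.49 to -0.21, and tbxta in the double mutant against nkd1-/- -0.23 to 0.0365, the last without nkd1-/- replicate 2. The log2 ratio of the double mutant against nkd1-/- ran from -0.15 to 0.17, below 0 without nkd1-/- replicate 2, nkd1-/- replicate 3 or double mutant replicate 1 (-0.145, -0.0111 and -0.0115). tbxta in nkd1-/- against Tu stayed called at 0.49 to 0.77, tbx16 there at 0.30 to 0.46, tbx16 in TL against Tu at 0.35 to 0.52 and tbxta in the double mutant at 0.46 to 0.57. Replicate numbers share only a number here. With a replicate block, tbxta in nkd1-/- against Tu was 0.63 (adjusted p = 0.00249) and tbx16 0.37 (adjusted p = 0.00421), and no call on either gene changed. Precision is limited by 3 samples of 1 family per group.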

Other observations

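Genes of BMP signalling and dorsoventral patterning, 12 of 19 symbols tested, were 2 higher and 5 lower in axin2-/- against TL, 0 and 2 in nkd1-/- against Tu, 3 and 3 in the double mutant and 0 and 1 in TL against Tu. All genes were higher and lower at 10.6% and 10.6%, 14.4% and 14.8%, 19.7% and 17.7%, and 15.3% and 15.7% in these comparisons. The 2 higher in axin2-/- became 0 without TL replicate 1, TL replicate 3 or axin2-/- replicate 2 and 1 without axin2-/- replicate 1. The 5 lower became 2 or 3 without TL replicate 2 or 3 or axin2-/- replicate 2 or 3, and were at most 4 in any fit that left out a sample. The 3 lower in the double mutant became 1 without double mutant replicate 3. szl, which encodes the secreted factor Sizzled on the ventral side, fell by 2.39 in axin2-/- against TL (edgeR adjusted p = 8.07e-06) and by 1.67 in nkd1-/- against Tu (adjusted p = 0.000144), and bmp4 fell by 0.88 in axin2-/- against TL (adjusted p = 0.000278). Of 20 maternal and stage genes, 5 were higher and 1 lower in axin2-/- against TL, 3 and 3 in nkd1-/- against Tu, 2 and 4 in the double mutant, and 1 and 3 in TL against Tu. Beside the same shares of all genes, the counts in nkd1-/- (3 of 20) and those lower in the double mutant and in TL were near the background. The 5 in axin2-/- became 2 without TL replicate 1 or 2 and 3 without axin2-/- replicate 1 or 3, and were at most 4 in any fit that left out a sample. The 4 lower in the double mutant became 2 without double mutant replicate 2 or 3.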
